A study of Mus musculus with 9 samples.

Results

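Matrix metalloproteinases (MMPs) and the tissue inhibitors of metalloproteinases (TIMPs) were followed through the culture of CD103+ lung dendritic cells. The 10 genes were chosen by symbol as members of these families: the secreted proteases Mmp2, Mmp8, Mmp9, Mmp12 and Mmp19, the membrane-bound Mmp14 and Mmp25, and the inhibitors Timp1, Timp2 and Timp3. They are 10 of 45535 measured rows that carry a gene symbol, and all 10 were among the 18202 genes tested. Earlier results of these data were known when they were chosen. CD103+ cells were collected with magnetic beads from collagenase-digested lungs of mice labelled C57/BL6j that had received bleomycin, a drug that injures the lung and is used to model fibrosis, 7 days before. In the before-culture group (5 samples) RNA was taken directly, and in the after-culture group (4 samples) the cells were first kept for 18 h in RPMI with 10% serum, penicillin and streptomycin. Both groups therefore share the bleomycin injury, the digestion and the bead selection, and no uninjured lung is used here. The labels do not say whether the samples came from separate mice, so the p-values below measure only the spread between these samples, which may be technical.

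MMPs are zinc-dependent proteases that cut collagen, elastin, gelatin and other matrix proteins, and also chemokines and cell-surface receptors. They are made as inactive precursors whose propeptide must be removed, either by other proteases outside the cell or by furin-like convertases inside it, and TIMPs block the active site of the mature enzyme. In the injured lung they are known from neutrophils, macrophages and fibroblasts, and migrating dendritic cells use some of them to cross matrix. The values here are messenger RNA levels and say nothing of enzyme activity.

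The cells were checked against fixed marker lists, using normalized read counts summed over each list. Itgae, which encodes CD103, ran from 15948 to 20174 before culture and from 1281 to 2034 after it, and 7 of 8 markers of type 1 conventional dendritic cells (cDC1) fell, while 8 of 8 markers of mature dendritic cells rose. Markers of other lung cells were present as well: the neutrophil sum was 12958 to 22254 before and 839 to 1724 after culture, the fibroblast sum 28432 to 42438 and 5972 to 9009, and the sum for monocytes and interstitial macrophages 35258 to 63170 and 22533 to 48941. The endothelial sum was 24569 to 35764 before and 3286 to 4320 after culture. The sum for type 2 conventional dendritic cells (cDC2) overlapped, with 19651 to 27256 before and 16602 to 29714 after culture. Ly6g, a neutrophil surface marker named here after its values were seen, was at 0 in all after-culture samples. The extract protocol in the labels speaks of lung RNA as a whole, while the cell type label gives CD103+ cells. In bulk samples such as these, fewer cells of a type and less RNA per cell cannot be told apart. Depth ran from 14.7 to 35.3 M reads, and 1 read was worth 0.758 to 1.79 normalized counts. Before-culture replicate 4 and after-culture replicate 3 stood apart from their groups, with the highest alveolar epithelial sums (41289 and 8351) and the lowest neutrophil sums, and results that rest on them are given with and without them.

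Culture was accompanied by a change in which proteases the samples expressed. Mmp12, Mmp8 and Mmp25 rose, Mmp9 and Mmp2 fell, Timp2 and Timp3 fell, and Mmp14, Mmp19 and Timp1 did not pass the test. A gene was called when limma on log2(normalized count + 1) gave a Benjamini-Hochberg adjusted p under 0.05 over all genes tested. The members' 3 higher and 4 lower calls have to be read against a comparison in which 34.2% of all genes were called higher and 34.6% lower, 68.8% together. The before and after values did not overlap for 7 of 10 members, against 57.3% of all genes. The median log2 fold change of the 10 members was 0.16, beside 0.0065 for all genes, and it mixes genes that rose with genes that fell. Of the 10 members, 5 were called and beyond 4-fold, against 12.1% of all genes. The members were chosen with earlier results of these data known, so these shares describe the list. They do not show that the family changed more than other genes. With before-culture replicate 4 and after-culture replicate 3 left out, 5 members were called higher and 4 lower.

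**Figure D1:**
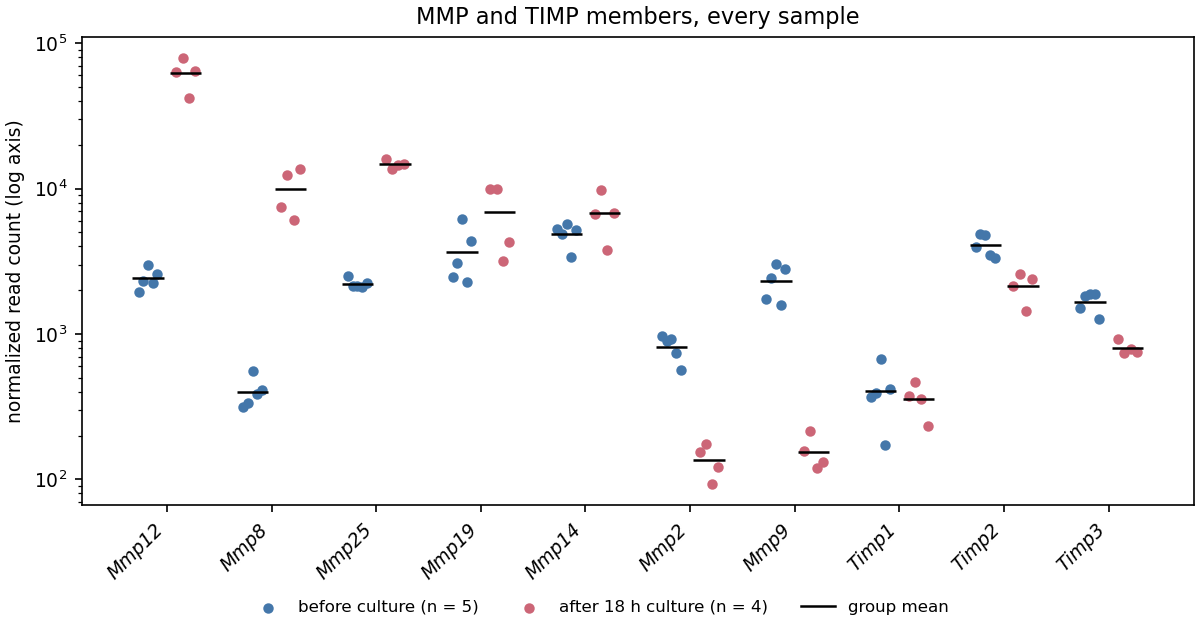
Normalized read counts of the 10 members in each of the 9 samples on a log axis, before culture (n = 5) and after 18 h of culture (n = 4), with the group mean as a line. The groups are apart for Mmp12, Mmp8, Mmp25, Mmp9, Mmp2, Timp2 and Timp3, and overlap for Mmp14, Mmp19 and Timp1.

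Mmp12, the macrophage metalloelastase, which cuts elastin, showed the largest rise among the members. Its normalized counts before culture were 1934, 2314, 2983, 2235 and 2595 in replicates 1 to 5. After culture they were 63796, 79025, 41666 and 64497 in replicates 1 to 4. Every after-culture sample lay far above every before-culture sample, including replicate 3, the lowest of them. The mean rose 25.8-fold, from 2412 ± 397 (SD, n = 5) to 62246 ± 15411 (SD, n = 4), and limma gave a log2 fold change of 4.67 with a standard error (SE) of 0.16 and an adjusted p of 4.09e-11. Per kilobase of the longest annotated transcript, which allows a rough comparison between genes, Mmp12 moved from rank 2989 to rank 46 of 17546 genes. Of 10 alveolar macrophage markers 2 rose and 6 fell, with a summed level of 30016 to 39858 before and 20474 to 27949 after culture. Of 11 monocyte and interstitial macrophage markers 1 rose, 5 fell and 5 were not called, and their sums overlapped (35258 to 63170 and 22533 to 48941). The part of macrophage RNA in the rise of Mmp12 was not tested.

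Mmp8, the collagenase stored in neutrophil granules, which cuts fibrillar collagen, rose almost as much from a lower level. It was at 315, 338, 553, 385 and 413 normalized counts in the before-culture samples. In the after-culture samples it was at 7423, 12403, 6093 and 13585. The groups were widely separated, and within the cultured samples replicates 2 and 4 were high and replicates 1 and 3 low. The rise was 24.6-fold (log2 fold change 4.57, SE 0.22, limma adjusted p 8.93e-10), and the rank per kilobase went from 7170 to 258. The neutrophil marker sum was 13.5-fold lower after culture, and the 9 of 12 neutrophil markers that were tested fell. Of these, 4 (S100a9, Ngp, Ltf and Mpo) passed the filter on low values only through the before-culture group and so had to fall; Ngp, Ltf and Mpo are named here for that reason, after their values were seen, as is Tcf21 among the fibroblast markers.

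Mmp25, a protease held on the cell surface by a lipid anchor and first described in leukocytes, was the steadiest of the members. Before culture it was at 2497, 2123, 2129, 2118 and 2227 normalized counts. After culture it was at 15993, 13734, 14583 and 14788. No sample came near the other group, and both groups were tight: the coefficient of variation was 7.29% before and 6.31% after culture, where the median gene with a mean of at least 100 had 9.78% and 10.9%. The rise was 6.66-fold (log2 fold change 2.74, SE 0.074, limma adjusted p 5.64e-12).

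The gelatinases, which digest denatured collagen and the type IV collagen of basement membranes, both fell. Mmp9, gelatinase B, was at 1729, 2445, 3030, 1578 and 2819 normalized counts before culture. After culture it was at 156, 215, 119 and 131. All cultured samples were below all uncultured ones, with the lowest uncultured values in replicates 1 and 4. Its mean was 14.9-fold lower (log2 fold change -3.88, SE 0.21, limma adjusted p 2.24e-09), and its rank per kilobase went from 2194 to 11131. Mmp9 is also a product of neutrophils. The samples with the most Mmp9 before culture, replicates 3 and 5, had the highest neutrophil sums, 22254 and 21242. Mmp8, Mmp12, Mmp19 and Timp1 were also highest in these replicates, so this is not particular to Mmp9. The part of neutrophil RNA in the fall of Mmp9 was not tested.

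Mmp2, gelatinase A, a protease typical of fibroblasts that MMP14 activates together with TIMP2, was the less abundant gelatinase per kilobase before culture. Its normalized counts were 975, 896, 924, 739.9 and 566 before and 155, 175, 92.8 and 122 after culture. The groups were apart, and replicate 5 was the lowest of the uncultured samples. The mean was 6.02-fold lower (log2 fold change -2.59, SE 0.19, limma adjusted p 5.60e-08). All 10 fibroblast markers also fell, 1 of which (Tcf21) passed the filter only through the before-culture group, and their part in the result was not tested.

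Mmp14, the membrane-type protease that cuts collagen at the cell surface and activates pro-MMP2, did not pass the test. It was at 5245, 4867, 5670.1, 3363 and 5171 normalized counts before and 6637, 9822, 3801 and 6793 after culture. The groups overlapped because after-culture replicate 3 lay among the uncultured samples, while the other cultured samples were above all of them. Limma gave a log2 fold change of 0.42 (SE 0.22, adjusted p 0.104). Without after-culture replicate 3 it was 0.67, with a limma adjusted p of 0.00271. Without before-culture replicate 4 it was 0.29 (limma adjusted p 0.224). With before-culture replicate 4 and after-culture replicate 3 both left out it was 0.54 (limma adjusted p 9.87e-04), and without after-culture replicate 2 it was 0.21 (limma adjusted p 0.345).

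Mmp19, a secreted protease of basement membrane and cartilage matrix, varied widely between samples of both groups. Before culture it was at 2469, 3097, 6150.3, 2296 and 4337 normalized counts, and after culture at 9990.2, 9969, 3173 and 4317. Cultured replicates 1 and 2 stood above every other sample, whereas cultured replicates 3 and 4 lay within the uncultured range. The coefficient of variation was 43.6% before and 52.9% after culture, higher than that of 99.5% and 99.3% of genes. Limma gave a log2 fold change of 0.83 (SE 0.35) and an adjusted p of 0.0510, at the threshold. The limma adjusted p fell below it without before-culture replicate 3 (1.04, p 0.0155) or 5 (0.91, p 0.0499), without after-culture replicate 3 (1.14, p 0.00679) or 4 (0.99, p 0.0402), and with before-culture replicate 4 and after-culture replicate 3 both left out (1.00, p 0.0107). It stayed above the threshold with any other single sample left out. The smallest log2 fold changes were 0.59 without after-culture replicate 1 (limma adjusted p 0.174) and 0.59 without after-culture replicate 2 (0.155). In the annotation 28.3% of its exon bases overlap Tmem198b and Gm47093 on the other strand. Tmem198b fell (724 ± 82.2 to 292 ± 43.9), and because the strand of the counting is not known, reads of these genes cannot be told apart.

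The inhibitors were lower or unresolved after culture, and no TIMP rose. Timp2, which blocks most MMPs and takes part in activating pro-MMP2, was at 3975, 4835, 4784, 3483 and 3342 normalized counts before culture and at 2138, 2576, 1433 and 2397 after it. The groups did not overlap. It fell 1.91-fold (log2 fold change -0.95, SE 0.16, limma adjusted p 1.53e-04).

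Timp3, the inhibitor that binds to the matrix and also blocks several ADAM proteases, was at 1498, 1822, 1883, 1882 and 1269 before and at 928, 741, 793 and 751 after culture. Again no sample of one group reached the other. The fall was 2.08-fold (log2 fold change -1.04, SE 0.12, limma adjusted p 4.72e-06). Of its exon bases 21.3% overlap Syn3 on the other strand, a gene that rose from 77.1 ± 19.1 to 913 ± 158, and reads from that stretch cannot be told apart either.

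Timp1, a secreted inhibitor with high affinity for MMP9, had no resolved difference. It was at 370.4, 394, 669, 172 and 421 normalized counts before and 374, 469, 358 and 233 after culture. The groups overlapped completely, with the uncultured samples holding both the highest (replicate 3) and the lowest value (replicate 4). The log2 fold change was -0.095 (SE 0.30, limma adjusted p 0.795), and its sign turned under other scalings (0.013 with upper quartile and 0.056 with quantile normalization). This does not show that Timp1 stayed the same, since its standard error was above that of the called inhibitors.

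Set per kilobase, the make-up of the protease RNA differed between the groups; these are descriptions with no test. Summed over all 23 MMP genes of the family in the table, the normalized count per kilobase was 5236 ± 963 before (SD, n = 5) and 27563 ± 6515 after culture (SD, n = 4). Summed over the 4 TIMP genes it was 1915 ± 373 and 1152 ± 182. The ratio of the MMP sum to the TIMP sum was thus 2.38 to 3.38 in the uncultured samples and 19.9 to 26.5 in the cultured ones. Mmp12 made much of this: with Mmp12 left out the ratio was 2.47 ± 0.332 and 11.8 ± 1.28.

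Within the MMP sum Mmp14 led in 4 of 5 uncultured samples and Mmp19 in replicate 3 (27.1%, with Mmp14 at 26.3%), while Mmp12 led in all 4 cultured samples. Mmp14 held 28.8 ± 3.28% before and 7.40 ± 1.03% after culture, Mmp19 held 19.9 ± 4.98% and 7.07 ± 2.89%, and Mmp9 held 13.8 ± 1.95% and 0.178 ± 0.0239%. Mmp12 went from 10.4 ± 1.18% to 50.3 ± 0.988%, so that the cultured samples had nearly the same Mmp12 share although their Mmp12 levels differed. Mmp8 held 2.71 to 3.90% in the uncultured and 11.0 to 19.7% in the cultured samples. Shares are tied to one another: a lower share of Mmp14 is not a lower level of Mmp14.

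**Figure D2:**
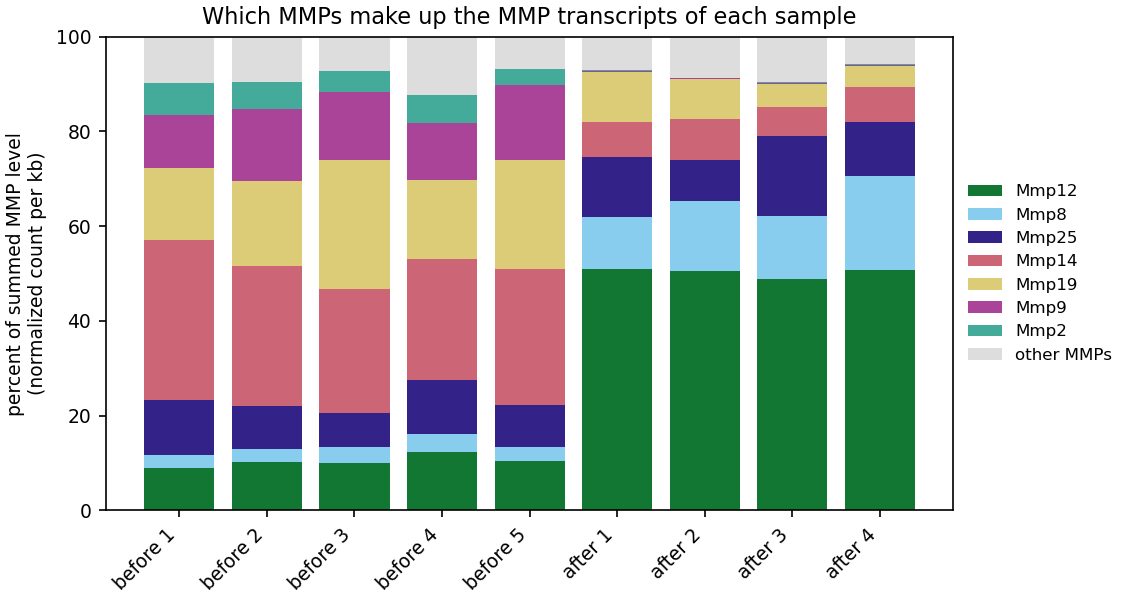
Share of each member MMP in the MMP level summed over 23 genes (normalized count per kilobase of transcript, in percent, with the MMPs that are no member in grey), 1 bar for each of the 9 samples. Mmp12 takes 10.4% of the MMP sum on average before culture and 50.3% after it, and Mmp9 falls from 13.8% to 0.178%.

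The rest of the family was read from a fixed list of 16 further MMPs and Timp4, of which 13 of 17 genes were tested. There were 6 higher, 3 lower and 4 not called, so that the share called was near the 68.8% of all genes, and 4 of the 6 (Mmp7, Mmp10, Mmp20 and Mmp27) passed the filter on low values only through the after-culture group and so had to differ. Of those present in both groups, the collagenase Mmp13 went from 50.5 ± 21.8 to 2178 ± 1107 normalized counts (log2 fold change 5.37, SE 0.33, limma adjusted p 8.62e-09) and the stromelysin Mmp3 from 115 ± 36.7 to 1408 ± 326 (3.62, SE 0.20, limma adjusted p 2.99e-09). The stromelysin Mmp10 had 1 to 14 reads before and 392 to 943 reads after culture. Mmp3 and Mmp10 share 8.39% and 8.37% of their 50-base windows with each other, so a small part of their reads could be assigned to either.

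The 3 genes of this list that fell were none of the collagenases or stromelysins. Mmp28, called epilysin, fell from 365 ± 80.8 to 21.5 ± 5.50 normalized counts (log2 fold change -4.03, SE 0.20), and Mmp15, a membrane-type MMP, fell from 309 ± 124 to 60.4 ± 18.7 (-2.29, SE 0.27). Mmp17, chosen for mention after its values were seen, also fell (-1.37). Timp4 had 2 to 20 reads before and 0 reads in every cultured sample and was below the filter.

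**Figure D3:**
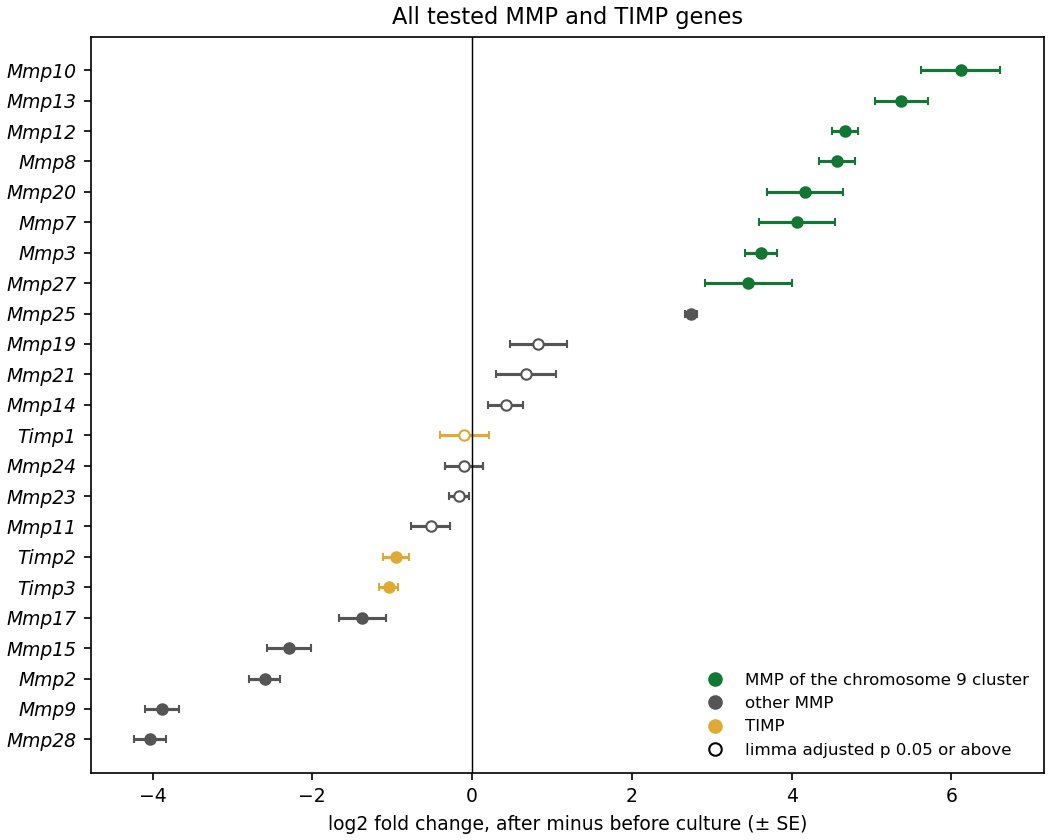
Log2 fold change after against before culture for the MMP and TIMP genes tested, with its standard error, from limma on 5 and 4 samples. The values run from -4.03 (Mmp28) to 6.11 (Mmp10), and the tested genes of the chromosome 9 cluster all lie above 3. Of these, Mmp7, Mmp10, Mmp20 and Mmp27 passed the filter on low values only through the after-culture group.

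Mmp12 and Mmp8 lie in the same cluster of MMP genes, with Mmp1b, Mmp3, Mmp1a and Mmp10 between them. Most MMP genes that rose lie in this cluster, a grouping chosen after the values were seen. The other members lie on chromosomes 2 (Mmp9), 8 (Mmp2), 10 (Mmp19 and Timp3), 11 (Timp2), 14 (Mmp14), 17 (Mmp25) and X (Timp1). A stretch of mouse chromosome 9 (GRCm38.p6, 7272514 to 7699585, 427 kb) holds 10 MMP genes in the order Mmp13, Mmp12, Mmp1b, Mmp3, Mmp1a, Mmp10, Mmp8, Mmp27, Mmp20 and Mmp7. All 8 that were tested were higher after culture, against 34.2% of all genes. However, 4 of them (Mmp7, Mmp10, Mmp20 and Mmp27) passed the filter only through the cultured samples and so had to be higher. The others, Mmp3, Mmp8, Mmp12 and Mmp13, had log2 fold changes from 3.62 to 5.37. Of 12 tested MMPs elsewhere, 1 (Mmp25) was higher, 5 were lower and 6 were not called. The cluster was not uniform: Mmp1a had at most 1 read in any sample, and Mmp1b had 2 to 8 reads before and 1 to 9 after culture. The weakly counted genes had 0 to 1 reads before and 17 to 42 after culture for Mmp20, 0 to 7 and 30 to 79 for Mmp27, and 0 to 4 and 38 to 58 for Mmp7, all 3 outside the rule for named genes.

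Neighbours of the cluster moved in both directions. Of the 12 nearest protein-coding genes, 6 on each side, 10 were tested, and 6 were higher and 3 lower, against 34.2% and 34.6% of all genes. On the side of Mmp7, the membrane protein gene Tmem123 rose 6.15-fold (8968 ± 499.8 to 55154 ± 4399 normalized counts), and the apoptosis inhibitors Birc2 and Birc3 rose 4.40-fold and 2.29-fold. The next gene, Yap1, fell (log2 fold change -1.18). On the side of Mmp13, Dcun1d5 and Dync2h1 rose by 0.21 and 0.50, while Pdgfd (-3.73) and Casp12 (-2.09) fell; Pdgfd passed the filter only through the before-culture group. These neighbours too were named after their values were seen.

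**Figure D4:**
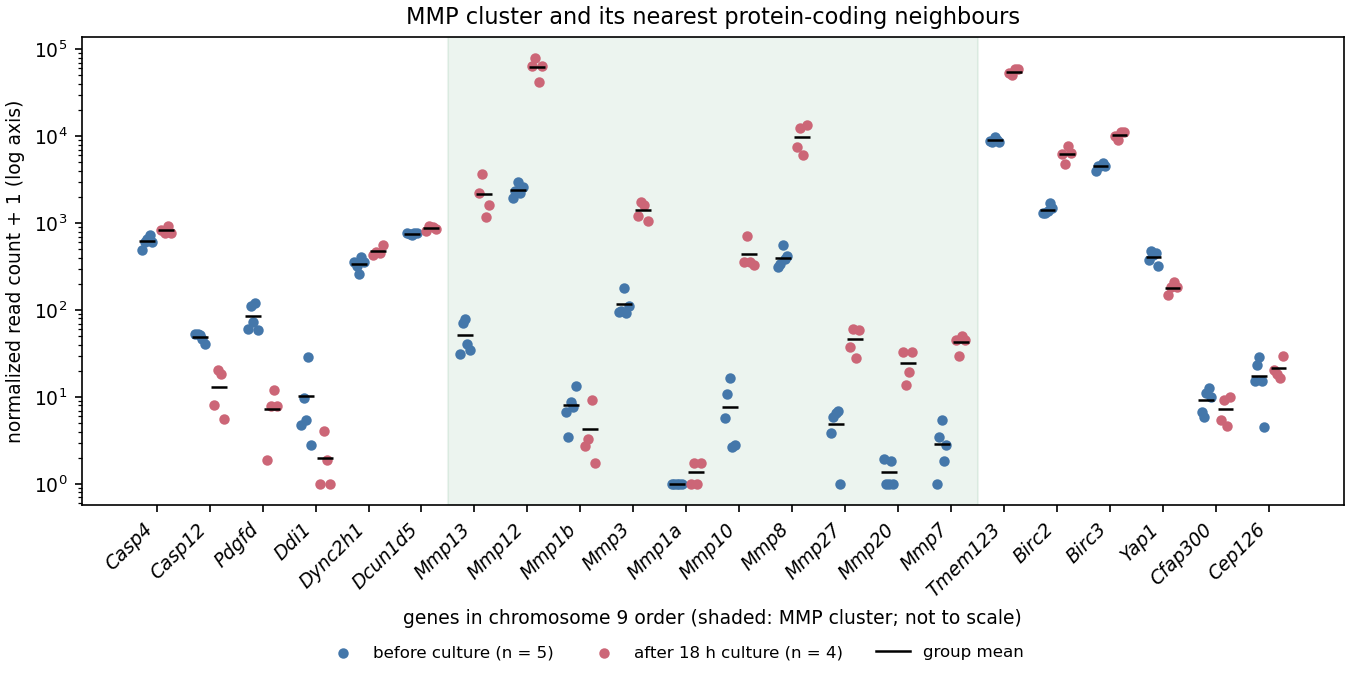
Normalized read count + 1 (log axis) of the 10 MMP genes of the chromosome 9 cluster and 6 protein-coding neighbours on each side, in genome order, in all 9 samples. In the shaded cluster 8 of 10 genes are higher after culture, and Mmp1a and Mmp1b stay near 0 reads. Of the 8, 4 passed the filter on low values only through the after-culture group. Tmem123, Birc2 and Birc3 next to the cluster are also higher.

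The 250 bases before the starts of the MMP and TIMP genes were searched for 3 motifs on both strands: TGANTCA for AP-1 (a dimer of Fos and Jun proteins), AGGAAG for ETS factors, and TATAAA for the TATA box. TGANTCA, with any base at N, is wider than the AP-1 site TGA(C/G)TCA. Since the cluster was grouped after the values were seen, setting it against the other family genes is a description. The RefSeq promoter table (GRCm38.p6) held 22 of 27 MMP and TIMP genes and 7 of the 10 members, without Mmp2, Mmp9 and Mmp19. The TGANTCA letters, called AP-1 letters below, were found in 8 of 10 cluster genes and in 0 of 12 other family genes, against 6.75% of all 32817 windows in the table. The match in Mmp20 was TGAATCA, which is outside TGA(C/G)TCA, and the 6.75% counts such forms too. TATAAA was found in 7 of 10 cluster genes and 1 of 12 others, against 12.4% of windows, and AGGAAG in 6 of 10 and 6 of 12, against 29.5%. A gene with more than 1 window, such as Mmp12, was counted if any of its windows matched, while the percentages are of single windows. No AP-1 match overlapped a match of another motif. The 8 matches are shown with 15 bases on each side, on the strand of the gene and with the AP-1 letters in capitals, since they lie at like distances, 35 to 95 bases before the start:
Mmp13: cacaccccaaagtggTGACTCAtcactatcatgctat
Mmp12: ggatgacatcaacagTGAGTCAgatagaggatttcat
Mmp1b: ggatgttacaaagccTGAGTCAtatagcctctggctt
Mmp3: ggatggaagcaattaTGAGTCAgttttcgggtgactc
Mmp1a: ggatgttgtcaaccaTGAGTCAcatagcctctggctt
Mmp10: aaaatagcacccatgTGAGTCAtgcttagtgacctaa
Mmp20: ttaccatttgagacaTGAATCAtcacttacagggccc
Mmp7: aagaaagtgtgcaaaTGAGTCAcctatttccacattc

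A match is a description of letters and not a binding site. Mmp1a and Mmp1b carry the same TGAGTCA as Mmp12 and Mmp3 but were near 0 reads in every sample, and Mmp8 and Mmp27 had no match and were higher after culture. Mmp25, which also rose, had none. The member with a match, Mmp12, has 2 starts in the table, and only the window of the second one holds the letters, 44 bases before it. That window and the window of Mmp8 are printed whole because these are the members of the cluster, one with the letters and one without:
Mmp12 (second start, chr9:7347124-7347373, + strand): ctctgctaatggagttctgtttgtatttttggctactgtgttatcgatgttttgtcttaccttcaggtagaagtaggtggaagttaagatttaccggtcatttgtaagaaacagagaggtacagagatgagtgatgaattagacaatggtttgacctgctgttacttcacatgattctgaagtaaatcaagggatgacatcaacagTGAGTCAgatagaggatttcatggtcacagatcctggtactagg
Mmp8 (chr9:7558179-7558428, + strand): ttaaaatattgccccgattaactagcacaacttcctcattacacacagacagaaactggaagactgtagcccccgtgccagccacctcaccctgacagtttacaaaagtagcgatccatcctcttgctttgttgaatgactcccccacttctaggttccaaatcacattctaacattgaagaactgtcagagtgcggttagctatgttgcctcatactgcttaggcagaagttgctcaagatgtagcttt

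Genes that activate, bind or block MMPs were called about as often as all genes (68.8%). Of 18 listed, 17 were tested: 3 rose, 9 fell and 5 were not called, with a median log2 fold change of -0.50 beside 0.0065 for all genes. Cd63, which encodes a membrane partner of TIMP1, rose from 2124 ± 416 to 11509 ± 1258 normalized counts (log2 fold change 2.45, SE 0.13). Pcsk5, a proprotein convertase, fell from 236 ± 39.1 to 15.8 ± 10.3 (-3.98, SE 0.31). Lcn2, whose protein binds MMP9 and is carried in neutrophil granules, fell from 764 ± 191 to 99.8 ± 28.5 (-2.94, SE 0.21). Sparc, a matrix protein, fell from 5357 ± 1607 to 1074 ± 259 (-2.30, SE 0.20). Reck, which encodes a membrane inhibitor of MMPs, had 179.7 ± 22.7 and 180.4 ± 19.8 normalized counts and did not pass the test; it was chosen after its values were seen.

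Genes for matrix proteins that MMPs cut were mostly lower after culture. Of 21 listed and tested, 16 fell, 2 rose and 3 were not called, against 34.6% of all genes called lower and 34.2% higher, and the median log2 fold change was -1.67 beside 0.0065 for all genes. Eln, the elastin gene, fell from 4838 ± 1833 to 186 ± 115 normalized counts (-4.77, SE 0.32). The collagen genes Col3a1 (-4.09), Col6a2 (-3.71), Col6a1 (-3.47), Col1a2 (-3.29) and Col1a1 (-2.74) fell as well. This list shares Col1a1, Col1a2, Col3a1 and Dcn with the fibroblast markers, whose summed level was 28432 to 42438 before and 5972 to 9009 after culture. The endothelial marker sum fell as well, from 24569 to 35764 before to 3286 to 4320 after culture. The part of fibroblast or endothelial RNA was not tested.

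The related ADAMTS proteases of the matrix fell where they were called, except Adamts13. Of 23 ADAM and ADAMTS genes listed, 21 were tested, with 7 higher, 11 lower and 3 not called, against 34.2% higher and 34.6% lower among all genes. Adamts1, a protease of the proteoglycans aggrecan and versican, fell from 3899 ± 585 to 102 ± 17.1 normalized counts (log2 fold change -5.25, SE 0.13). Adamts15 (-4.55, which passed the filter only through the before-culture group), Adamts4 (-3.29), Adamts14 (-3.10) and Adamts9 (-2.96) were the next largest falls.

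Several members had their highest or lowest value of a group in the same sample. How often these samples were the extremes over all genes was not counted, and replicates also differed over all genes by more than sampling noise. The pattern is therefore not shown to be particular to the members. Before-culture replicate 3 was the highest sample of its group for 7 of 10 members, and before-culture replicate 4 the lowest for 5 of 10. After culture, replicate 2 was the highest for 6 of 10 and replicate 3 the lowest for 7 of 10. The same 2 low samples had the lowest sums of monocyte and interstitial macrophage markers, 35258 and 22533, and the 2 high ones the highest, 63170 and 48941. The neutrophil sums were likewise lowest in these low samples (12958 and 839) and highest in the high ones (22254 and 1724). So were the cDC2 sums (19651 and 16602, against 27256 and 29714). None of the other marker lists had its extremes in all of these samples. Not every member followed this pattern of high and low samples. On the log2 scale, the deviation from the group mean in after-culture replicate 3 was -0.017 for Mmp25, -0.012 for Timp3 and 0.040 for Timp1, and in before-culture replicate 4 it was 0.19 for Timp3. The part of macrophage, neutrophil or cDC2 RNA in the spread of the members was not tested.

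**Figure D5:**
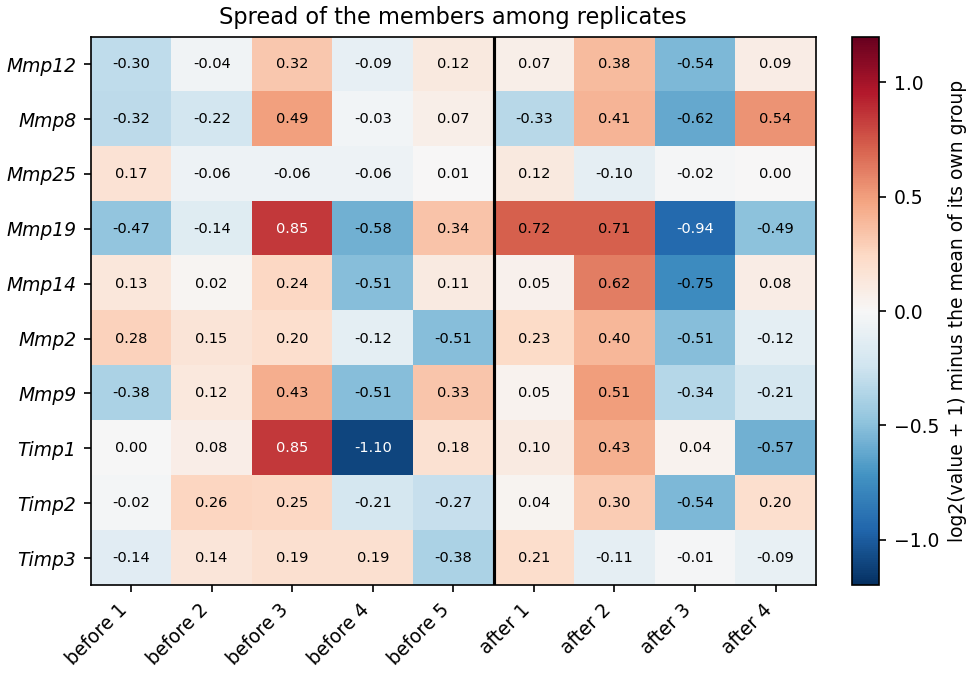
Deviation of each member from its group mean, log2(normalized count + 1), in each of the 9 samples. After-culture replicate 3 is below its group mean for 9 of 10 members and before-culture replicate 4 for 9 of 10, while Mmp25 is close to 0 in most samples.

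The genes whose pattern over the 9 samples was most like that of the member with the largest rise and of the one with the largest fall were found by Pearson's r of log2(normalized count + 1), among 11786 genes with a mean of at least 100. For Mmp12 these were Sgpl1 (r 0.998), a lyase of sphingosine phosphate, and Slfn10 (r 0.998). For Mmp9 they were the neutrophil-attracting chemokine gene Cxcl2 (r 0.998) and the kinase gene Map3k3 (r 0.997). The 9 samples form 2 separated groups, so these values mostly reflect the difference between the groups and are a description. Among the uncultured samples Cxcl2 and Mmp9 were both highest in replicate 3 and lowest in replicate 4. Cxcl2 was picked for its likeness to Mmp9 over these same samples, so this is no separate support.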

How the data were processed

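RNA sequencing of 9 samples was analysed, 5 before and 4 after culture. The deposited table holds a normalized signal per gene, read counts that the authors divided by a factor per sample; the submitters' processing notes name DESeq2 and GRCm38 without a role or version. The aligner, counter, annotation and strandedness are not given in the sources used here. Dividing each column by its smallest non-zero value gave whole reads for 100% of values (tolerance 1e-04). The 3782 rows with no symbol were left out (3.87 to 10.9% of reads). Columns were matched to samples by library name.

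The fit used limma 3.58.1 (R 4.3.3) on log2(value + 1) for genes whose overall mean was 10 or more (mean-variance trend, no covariate beside the group, two-sided, Benjamini-Hochberg adjusted p, threshold 0.05). It called 12524 of 18202 genes; on the recovered reads edgeR 4.0.16 called 12562 and DESeq2 1.42.0 called 12663. Adding 1 before the logarithm shrinks the log2 fold change of low genes; folds given without log2 are ratios of means. Reads carry no molecular identifiers, so the spread between samples was used as the error. Replicates of a group differed by more than sampling noise (chi-square over its degrees of freedom, 7.02 to 66.9 in 16 pairs).

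Positions, transcript lengths and overlaps came from GENCODE M21 (GRCm38.p6), and promoter windows from RefSeq. The length of a gene was that of its longest annotated transcript. Which transcript these cells expressed was not determined, and all values per kilobase depend on this choice. Members and lists were chosen with earlier results of these data known. Named genes were the members, up to 6 genes of each list past the threshold with a log2 fold change of at least 2 in size and a mean of at least 100, the first 3 markers of each cell type, and the 2 genes most like the members that rose and fell most; any other gene is identified as such in the text. Alternatives were other pseudocounts (0.5 and 8), filters (none and 50), scalings (upper quartile, TMM, quantile), a GC and length correction, edgeR, DESeq2, replicate blocks and leaving out each sample. Leaving out 2 samples together was chosen after seeing the data. The test was run on simulated data first. Python 3.11.15, pandas 2.3.3 and matplotlib 3.10.9 were used.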

Additional observations from a re-analysis of the deposited data

Results flagged for a closer look

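Mmp25 before culture had 1 sample apart from the rest. Replicate 1 was at 2496.6 normalized counts, and its gap to the nearest sample was 0.712 of the group's range, just above the 95% critical value of 0.71 for 5 samples. Among 20 groups of values tested (10 members in both conditions) this was the only one, and chance marks about 1 in 20. Without that replicate the log2 fold change of Mmp25 was 2.78, beside 2.74 with all samples. It was the highest value with any 1 sample left out (2.70 to 2.78).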

How the results depend on the processing

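The 7 called members (Mmp2, Mmp8, Mmp9, Mmp12, Mmp25, Timp2 and Timp3) kept their direction and passed the threshold under all 22 alternatives. Members called higher numbered 5 instead of 3 with upper quartile scaling, with a replicate block by the number in the library name, and with both libraries that carry the number 4 left out (3 to 5 with each sample left out in turn), since Mmp14 and Mmp19 were then called. Mmp14 passed, by adjusted p of the tool named or else of limma, with upper quartile scaling (0.53), the replicate block by library name (0.43), the GC and length correction (0.70), DESeq2 (0.47) and without those libraries (0.54), and ranged from 0.21 to 0.67 with each sample left out. Mmp19 passed with a pseudocount of 8 (0.83), upper quartile (0.94), TMM (0.86) and quantile scaling (0.83), the replicate block by library name (0.79), edgeR (0.89) and without those libraries (1.00), and ranged from 0.59 to 1.14. Timp1 turned to 0.013 with upper quartile scaling, 0.056 with quantile normalization and 0.0298 with the GC and length correction, and ranged from -0.37 to 0.12. Upper quartile scaling moved the median of all genes by 0.11. Of the other MMPs and Timp4, 3 were higher with a minimum mean of 50 and 5 lower with no filter. Replicate numbers in the titles did not pair the samples (correlations of deviations -0.21 to 0.081), and the replicate block on them gave 0.91 for Mmp19 and 0.45 for Mmp14, neither past the threshold, with 11646 genes called. Library name numbers gave 0.045 to 0.35, not all above 0.1, and every cultured sample (4 of 4) correlated best with its own number, a hint from the data and not the design. The 20 genes named from the pathway lists, with Mmp7, Mmp20 and Mmp27, kept their call in all 500 values computed. No value was computed where a gene was below the filter. These gaps were Mmp7, Mmp20 and Mmp27 at a minimum mean of 50, and Mmp20 without after-culture replicate 1, 3 or 4. Markers and the genes most like Mmp12 and Mmp9 were not recomputed. Genes under about 3 reads, such as Mmp1a, are below what this depth resolves.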

Other observations

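Of the ADAM genes, several of which encode proteases that release receptors and cytokines from the cell surface, the following were chosen after their values were seen. Adam10 rose from 4592 ± 308 to 8797 ± 1140 normalized counts (SD, n = 5 and 4, log2 fold change 0.93, SE 0.091), and Adam17, the TNF convertase, rose from 2997 ± 197 to 4699 ± 706 (0.64, SE 0.099). Adam8 (0.67), Adam12 (1.81), Adam19 (0.61) and Adam23 (1.11) rose too, while Adam15 fell (-0.82). Limma on all 9 samples called each of them.

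Of the plasmin system, which activates several MMPs, Plau, the urokinase gene, rose from 1436 ± 248 to 3187 ± 1076 normalized counts (log2 fold change 1.09). The urokinase receptor gene Plaur fell from 8778 ± 1256 to 4299.6 ± 1296 (-1.07) and the tissue plasminogen activator gene Plat from 645 ± 54.2 to 287 ± 16.9 (-1.16). Furin, which cuts the propeptide of MMP14, fell from 24200.4 ± 3535 to 6087 ± 923 (-1.99). The matrix genes Tnc (1.79) and Vcan (1.40) were the only 2 of 21 that rose. These genes were also chosen after their values were seen.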
